A study of Mus musculus with 4 samples.

Results

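Fast skeletal muscle fibres carry their own forms of the sarcomere proteins, and 10 genes for such fast forms were followed here through pools of mouse liver RNA. They encode the fast troponins (Tnnc2, Tnni2, Tnnt3), the adult fast myosin heavy chains (Myh1, Myh2, Myh4), the fast myosin light chains (Mylpf, Myl1), the fast-fibre calcium pump (Atp2a1) and the fast-fibre alpha-actinin (Actn3). They were taken by the gene name given in the scanner files, which found all 10, read by 12 probes, among 30026 genes on the array. The genes were chosen with their signal and detection on these same arrays in view, so every value below is a description and carries no test.

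The study compared livers of C57BL/6N mice labelled Pnpla7-/- (KO) with livers of WT mice of the same strain, at 3 and at 6 weeks of age. The groups were KO at 3 weeks, WT at 3 weeks, KO at 6 weeks and WT at 6 weeks, and no further treatment is named. Each group was 1 array, hybridised with equal parts of RNA from the livers of 5 animals, so the spread between animals cannot be seen. The sources used here do not say which part of Pnpla7, a lysophospholipase gene, was deleted, or in which cells. All 4 arrays came from a single slide, and a group's place on it cannot be told apart from the group.

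Signal is given throughout as processed intensity divided by the 75th percentile of the array's non-control spots. A probe counts as detected where the scanner software called it well above background. Between 28714 and 30697 of 43020 spots were detected per array and none was saturated. All 12 hepatocyte markers, Alb and Ttr among them, were detected on all 4 arrays, with summed signals of 1639 and 1807 in KO livers and 1628 and 1565 in WT livers at 3 and 6 weeks. Pnpla7 itself had a signal of 6.70 in KO and 7.54 in WT at 3 weeks, and of 4.42 in KO and 9.65 in WT at 6 weeks. Whether this probe lies in the deleted part is unknown, so it is no check of genotype and directions rest on the labels. In bulk RNA, fewer cells of a type and less RNA per cell cannot be told apart, for the muscle genes as for any other.

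In a sarcomere, myosin heavy chains pull on actin filaments, and calcium released into the fibre opens the filament to myosin through the troponin complex. Calcium is then pumped back into the sarcoplasmic reticulum, the fibre relaxes, and alpha-actinin anchors the actin filaments at the Z-disc. Fast and slow fibres build this machine from different genes, and the fast heavy chains mark fibre types IIa (Myh2), IIx (Myh1) and IIb (Myh4). Hepatocytes do not build sarcomeres.

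The genes of the fast troponin complex were higher in KO than in WT at both ages, each by over 16-fold. Tnnc2, the calcium-binding subunit, had a signal of 15.2 in KO and 0.0360 in WT at 3 weeks, and of 10.9 in KO and 0.185 in WT at 6 weeks. Its log2 ratio of KO over WT was 8.73 ± 0.25 at 3 weeks and 5.87 ± 0.21 at 6 weeks. The error, here and below, is that of the scanner software's model for single spots. It leaves out any difference between pools and the choice of background correction. The probe lies on chromosome 2 at positions 164602661 to 164602720 of mouse build mm9, minus strand.

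Tnni2, the inhibitory subunit, had a signal of 16.4 in KO and 0.109 in WT at 3 weeks, and of 7.76 in KO and 0.219 in WT at 6 weeks. The log2 ratios of KO over WT were 7.24 ± 0.21 and 5.15 ± 0.21. Both KO arrays were thus above both WT arrays for Tnnc2 and Tnni2, and both genes were detected on every array. The Tnni2 probe lies on chromosome 7 at 149630251 to 149630310 (mm9, plus strand).

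Tnnt3, the tropomyosin-binding subunit, lies on the same chromosome and was read by 2 probes that overlap by 27 bases, so they are not independent readings. The probe with the higher mean log2 signal over the 4 arrays, which stands for the gene, had a signal of 3.05 in KO at 3 weeks and 1.63 in KO at 6 weeks, against 0.0351 in WT at 6 weeks. It was not well above background in WT at 3 weeks, at 0.0125. Where a WT reading is that dim, the ratio is a lower bound against the lowest detected signal of that array, or against the probe's own reading where that is higher. For Tnnt3 this gave a log2 ratio of at least 7.66 at 3 weeks, and 5.53 ± 0.23 was measured at 6 weeks. The other probe was brighter in KO, at 4.23 and 2.51, and its values were at least 8.13 and 6.41 ± 0.24. The first of these probes spans 1763 bases of the mm9 genome, from 149698500 to 149700262, with 60 bases of its own, so it crosses at least 1 intron.

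The adult fast myosin heavy chain genes lie side by side on chromosome 11, in the order Myh3, Myh2, Myh1, Myh4, Myh8 and Myh13 of the RefSeq table, and encode very similar proteins. Whether a probe can tell them apart therefore matters for each value. The opening 30 of 60 bases of each probe are shown for the 3 members and for Myh8, the neonatal heavy chain next to Myh4.
Myh2: tgattctattccatcctgttgtaaggaaat
Myh1: gatgagcaaaatgtgaagatctttgtcact
Myh4: gaagaataatccatctttctgttgagaggt
Myh8: ccaggtcaacaagctgcgggtgaagagccg
The longest run of bases shared by any pair of these 4 full probes was 10. No probe of another gene on the array shared 20 or more bases in a row with a probe of the 10 genes. These runs compare probes with each other only. No probe was matched to the RNA of the neighbouring heavy chain genes, so whether it also reads them was not tested. On mm9, plus strand, the Myh2 probe lies at 67010960 to 67011019, the Myh1 probe at 67038002 to 67038061 and the Myh4 probe at 67073834 to 67073893.

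The 3 heavy chains were detected on both KO arrays, and their change between the ages differed. Myh2 had a signal of 4.56 in KO at 3 weeks and 5.39 in KO at 6 weeks, against 0.0514 in WT at 6 weeks, and was not well above background in WT at 3 weeks, at 0.00428. Its log2 ratio of KO over WT was 8.24 or more at 3 weeks, and 6.71 ± 0.22 at 6 weeks.

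Myh1 had a signal of 4.59 in KO at 3 weeks and 2.003 in KO at 6 weeks. In WT it was not well above background at 3 weeks, at 0.0103, and had a signal of 0.0309 at 6 weeks. This gave a log2 ratio of 8.25 or more at 3 weeks, and of 6.02 ± 0.25 at 6 weeks.

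Myh4 had a signal of 5.04 in KO at 3 weeks but only 0.217 in KO at 6 weeks, and was not well above background in WT at either age, at 0.00331 and 0.00261. The log2 ratio of KO over WT was thus 8.38 or more at 3 weeks, and 4.18 or more at 6 weeks. Unlike Myh1 and Myh2, Myh4 had thus no detected signal in WT at 6 weeks.

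Upstream of these heavy chain genes, the RefSeq promoters (build GRCm38.p6) share a stretch of sequence that is shown because the 3 genes lie together and were high together on the KO array at 3 weeks. The 200 bases before each annotated start are printed with the longest run common to all 3 promoters in capitals, and TATAAA in capitals where it occurs.
Myh2, chr11:67170827-67171026, plus strand: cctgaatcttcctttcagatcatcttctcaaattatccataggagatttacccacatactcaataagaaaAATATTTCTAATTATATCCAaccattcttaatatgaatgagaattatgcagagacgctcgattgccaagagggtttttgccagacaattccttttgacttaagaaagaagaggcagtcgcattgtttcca
Myh1, chr11:67199902-67200101, plus strand: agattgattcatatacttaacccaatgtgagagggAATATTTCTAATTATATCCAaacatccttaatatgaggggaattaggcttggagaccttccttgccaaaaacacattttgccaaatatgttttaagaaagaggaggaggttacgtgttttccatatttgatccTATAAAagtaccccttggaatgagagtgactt
Myh4, chr11:67237612-67237811, plus strand: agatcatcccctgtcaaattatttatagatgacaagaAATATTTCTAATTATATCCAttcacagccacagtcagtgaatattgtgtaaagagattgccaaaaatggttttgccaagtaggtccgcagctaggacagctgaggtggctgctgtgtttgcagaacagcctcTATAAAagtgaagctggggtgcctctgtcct
The run of 20 bases occurred in 3 of 32851 RefSeq promoter windows of equal length, those of Myh1, Myh2 and Myh4, and not in the listed promoters of Myh3, Myh8 or Myh13. It starts at -130 in Myh2, -165 in Myh1 and -163 in Myh4, counted from the annotated start. A shared run is a description of these letters and not a site.

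Promoters were listed for 7 of the 10 genes, not for Tnni2, Tnnt3 and Actn3. Motifs were sought on both strands of the whole window of 300 bases, which runs past the annotated start and so beyond the letters printed. TATAAA was in 4 of the 7 (13.6% of all promoters), in Myh2 only after the start, from base 11 of the transcript, the E-box CANNTG in 5 (72.3%), the MCAT element CATTCC in 3 (14.7%) and TCAGGTT, the MEF3 element, in none (4.07%). The MEF2 site was in 2 of the 7, Myh1 and Myh4 (3.19% of all), and the CArG box in Myh4 (1.63%). Some of these motifs can overlap each other.

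The light chains sit on the neck of the myosin head. Myl1, which makes a long and a short alkali light chain from alternative starts, had a signal of 7.37 in KO at 3 weeks and 5.25 in KO at 6 weeks on its brighter probe (chromosome 1, 66970948 to 66971007 of mm9, minus strand). In WT this probe was not well above background at 3 weeks, at 0.0102, and had a signal of 0.0499 at 6 weeks. Its log2 ratio of KO over WT came to 8.93 or more at 3 weeks and to 6.72 ± 0.23 at 6 weeks. The other Myl1 probe starts at base 107 of a different transcript and was not well above background in WT at either age. Its log2 ratios were at least 4.63 and at least 4.39.

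Mylpf, the phosphorylatable regulatory light chain, was near the limit of detection on its 1 probe, which starts at base 69 of its transcript (chromosome 7, 134355191 to 134355250 of mm9). Its signal was 0.0422 in KO at 3 weeks and 0.0317 in KO at 6 weeks, and 0.00315 and 0.00475 in WT, both not well above background. The log2 ratios of KO over WT were at least 1.48 and at least 1.41. The KO and WT readings did not overlap, but a bound this low says little about the size of the difference.

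Atp2a1, the SERCA1 pump that returns calcium to the sarcoplasmic reticulum, was the gene with the smallest ratio at 6 weeks. Its signal was 0.441 in KO and 0.121 in WT at 3 weeks, and 0.242 in KO and 0.0964 in WT at 6 weeks, detected on every array. The log2 ratios of KO over WT were 1.87 ± 0.21 and 1.33 ± 0.21. The probe lies on chromosome 7 at 133591703 to 133591762 (mm9, minus strand).

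Actn3, the alpha-actinin of fast Z-discs, had a signal of 0.200 in KO at 3 weeks and 0.101 in KO at 6 weeks. It was not well above background in WT, at 0.00307 and 0.00244, and its log2 ratios were at least 3.72 and at least 3.09. Its 60-base probe spans 486 bases of chromosome 19, from 4861727 to 4862212 of mm9, and so crosses an intron.

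**Figure D1:**
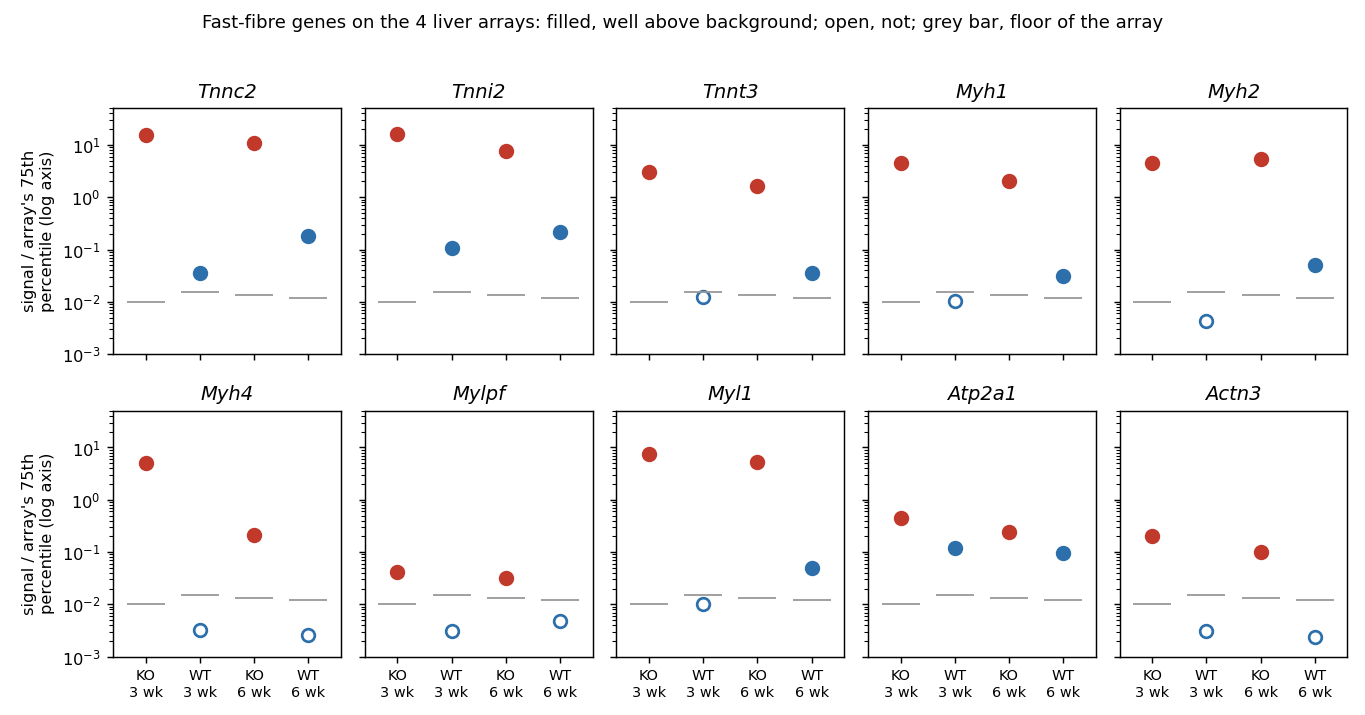
Signal of the 10 fast-fibre genes, as intensity over the array's 75th percentile on a log axis, on the KO and WT arrays at 3 and 6 weeks (1 array of 5 pooled livers per point, no error bars). Filled points were well above background, open points were not, and grey bars are the lowest detected signal of each array. For all 10 genes both KO points lie above both WT points. The genes were chosen on these signals, and the share of all genes with this order was not computed.

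All 10 genes were at least 2-fold higher in KO than in WT at 3 weeks, where 2.86% of 21758 genes were, and all 10 at 6 weeks, where 6.11% of 21386 were. At least 16-fold higher were 7 of the 10 at 3 weeks (0.294% of all genes) and the same number at 6 weeks (0.332%). These counts come from the contrast on which the genes were chosen. Their median, on the log2 scale, came to 7.95 or more for 3 weeks and 5.34 or more for 6 weeks, where the medians over all genes were 0.00 and 0.05. Of the 10 ratios, 7 were bounds at 3 weeks and 3 at 6 weeks. Background correction with normexp and quantile normalization lowered these medians to at least 6.16 and at least 4.59. Each of the 10 genes' ratios fell by more than the spot error at both ages. Tnnc2 at 3 weeks was then at 7.55, and at 6 weeks Myh1 was at 4.46, Myh2 at 5.43 and Myl1 at 5.45. This setting also took the lower bounds of Mylpf under 2-fold at both ages, at 0.64 and 0.49. The ratio of Atp2a1 at 6 weeks was under 2-fold as well, at 0.99.

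**Figure D2:**
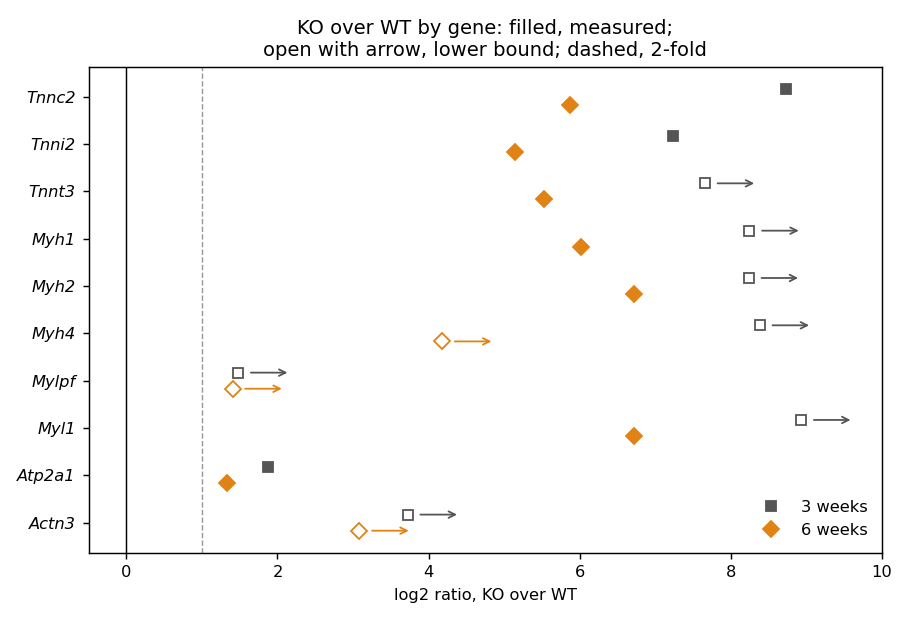
Log2 ratio of KO over WT for each of the 10 genes at 3 weeks (squares) and 6 weeks (diamonds), from 1 array per group; open symbols with arrows are lower bounds because WT was not well above background, and the dashed line marks 2-fold. Every gene lies to the right of the dashed line at both ages, from 1.33 for Atp2a1 at 6 weeks to at least 8.93 for Myl1 at 3 weeks.

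Between the KO arrays, the 10 genes did not change by a common factor. The log2 ratio of KO at 6 weeks over KO at 3 weeks was below 0 for 9 of the 10 and ran from -4.54 to 0.24, with a median of -0.89 against 0.06 over all genes. All 10 were detected on both KO arrays, so these ratios are measured and hold no bound, each with a spot error of 0.20 to 0.25.

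Myh4, the IIb heavy chain, stood at -4.54 ± 0.20, a signal 23.3-fold lower at 6 weeks than at 3 weeks. Myh1, the IIx heavy chain, had -1.20 ± 0.20, and Myh2, the IIa heavy chain, had 0.24 ± 0.20, the only value above 0. The 3 neighbouring genes thus lay in the order Myh2, Myh1, Myh4, with each gap wider than the spot error. Whether a probe also reads the RNA of a neighbouring gene was not tested.

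The other members lay between Myh1 and Myh2. Tnni2 had -1.08 ± 0.20, Actn3 -0.98 ± 0.21, Tnnt3 -0.91 ± 0.20 and Atp2a1 -0.86 ± 0.21, and the ranges of these errors overlap. Myl1 had -0.49 ± 0.20, Tnnc2 -0.49 ± 0.20 and Mylpf -0.41 ± 0.25, which lie within the spot error of each other. At least 2-fold lower at 6 weeks were 3 of the 10, Tnni2, Myh1 and Myh4, where 6.26% of 21971 genes were, and none was at least 2-fold higher (6.02%).

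A list of 10 other genes of fast fibres, such as the fast calcium store protein Casq1 and the fast myosin-binding protein Mybpc2, was set beside them. It had a median of -0.48 between the KO arrays, with 4 genes at least 2-fold lower and none higher. These 4, named after their values were seen, were Casq1 at -2.23, the calcium buffer Pvalb at -1.65, Mybpc2 at -1.63 and the muscle AMP deaminase Ampd1 at -2.51 or below. The KO signals of Ampd1 were 0.1000 at 3 weeks and 0.0175 at 6 weeks, the 6-week reading not well above background. The 11 slow-fibre sarcomere genes had a median of -0.02, with 1 gene at least 2-fold lower, Casq2, the slow and cardiac calcium store protein, at -1.13, and 1 at least 2-fold higher, Myl2, the slow regulatory light chain, at 1.28. Myh7, the slow heavy chain, had a signal of 1.78 at 3 weeks and 1.76 at 6 weeks in KO, a log2 ratio of -0.02. The fast median minus the slow median was -0.87 on the log2 scale. With normexp and quantile normalization this difference was -0.63. Lists of 20 sarcomere genes found in both fibre types and of 12 hepatocyte genes had medians of -0.08 and 0.15.

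**Figure D3:**
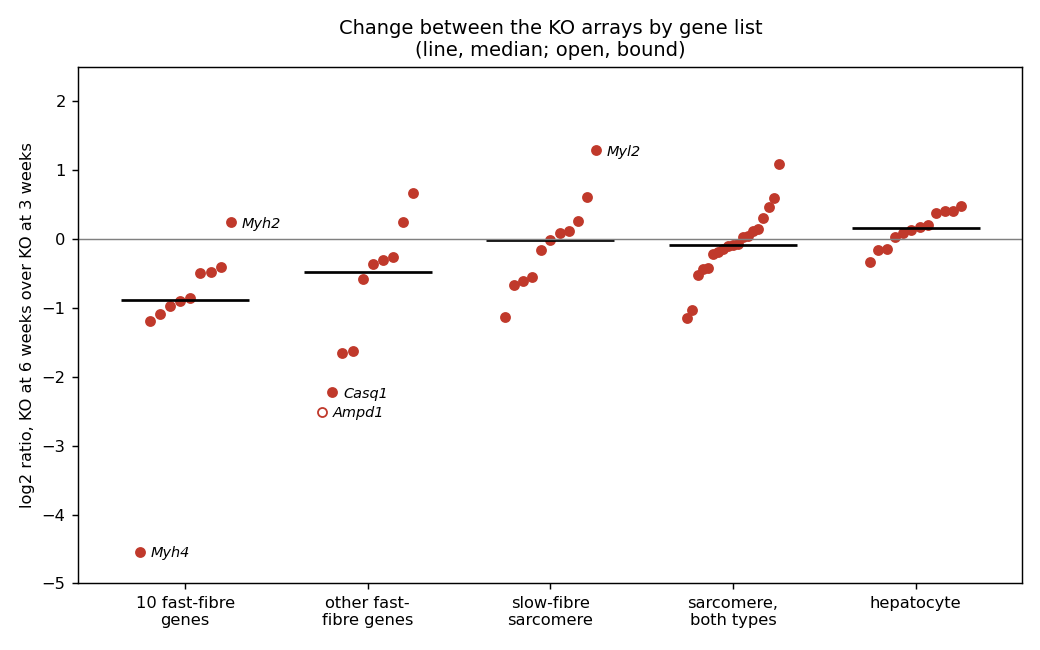
Log2 ratio of KO at 6 weeks over KO at 3 weeks for each gene (points) of 5 lists, with the list median (line); 1 array per age, and the open point is an upper bound. Myh4 lies at -4.54, apart from the other fast-fibre genes, Myh2 at 0.24, and the slow list is centred on -0.02.

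In WT the fast-fibre genes were low, yet their number above background differed between the ages. At 3 weeks 3 of the 10 were detected in WT, Tnnc2, Tnni2 and Atp2a1, and at 6 weeks 7 were, with Tnnt3, Myh1, Myh2 and Myl1 added. Over the whole array, 28714 of 43020 spots were detected in WT at 3 weeks and 29466 in WT at 6 weeks. The lowest detected signal was also higher in WT at 3 weeks, at 0.0151, than at 6 weeks, at 0.0120. Myh4, Mylpf and Actn3 were not well above background in WT at either age. Of the 7, 6 were at least 2-fold higher in WT at 6 weeks than in WT at 3 weeks, where 3.64% of 21169 genes were, and none was at least 2-fold lower (5.46%). Tnnc2 had a log2 ratio of 2.36 ± 0.25 and Tnni2 of 1.01 ± 0.21, Myh2 one of at least 1.76, Myl1 at least 1.72, Tnnt3 at least 1.22 and Myh1 at least 1.03. Atp2a1 stood at -0.32 ± 0.21. With normexp and quantile normalization only Tnnc2, at 1.49, still reached 2-fold, and Tnni2 was at 0.71. Myh2 was then at least 0.64, Myl1 at least 0.52, Tnnt3 at least 0.42 and Myh1 at least 0.38. Such bounds do not show whether these genes reach 2-fold. The median of the 7 was at least 0.52 in place of at least 1.22.

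The comparisons between the ages and those between the genotypes share their arrays and are not independent. For Tnnc2, Tnni2 and Atp2a1, measured on all arrays, the log2 ratio of KO over WT was lower at 6 weeks than at 3 weeks. The differences were -2.85, -2.09 and -0.54. With normexp and quantile normalization the ratios at 3 and 6 weeks were 7.55 and 5.49 for Tnnc2. They were 6.65 and 4.73 for Tnni2, and 1.52 and 0.99 for Atp2a1. The size for Tnnc2 thus depends on the background correction. Tnnc2 and Tnni2 were lower at 6 weeks in KO and higher at 6 weeks in WT, while Atp2a1 was lower at 6 weeks in both.

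**Figure D4:**
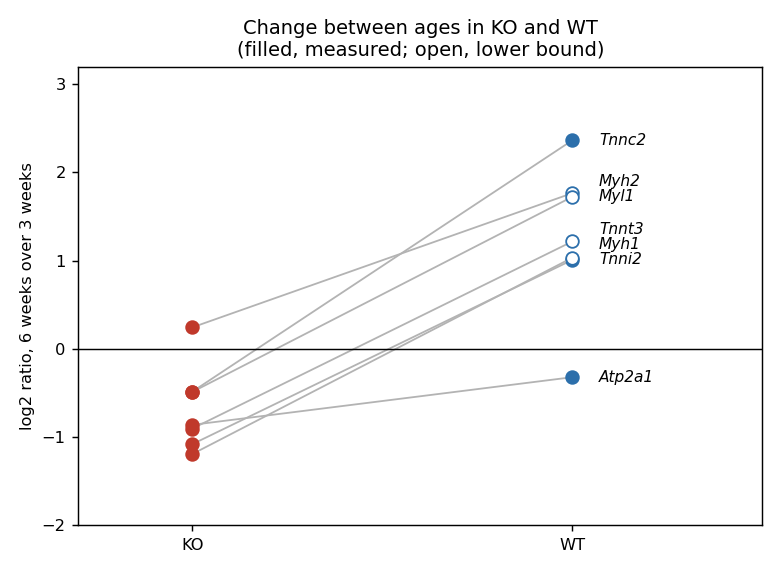
Log2 ratio of 6 weeks over 3 weeks in KO (left) and in WT (right) for the 7 fast-fibre genes that were detected on a WT array, joined by gene; open points are lower bounds, and each ratio is from 1 array per age. In KO the points lie between -1.20 and 0.24, and in WT 6 of 7 lie at or above 1.01, with Atp2a1 at -0.32. With normexp and quantile normalization, not drawn, only Tnnc2 (1.49) of these 6 lies above 1. Tnni2 is then at 0.71, and the lower bounds of the others run from 0.38 to 0.64.

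Other muscle genes were high on the same KO arrays. Beside the counts that follow, 2.86% of all genes were at least 2-fold higher in KO at 3 weeks and 6.11% at 6 weeks. Of the 10 other fast-fibre genes, 8 were at least 2-fold higher in KO than in WT at 3 weeks and 7 of the 9 with a ratio at 6 weeks, with medians of at least 3.19 and at least 1.76, and none was at least 2-fold lower (2.90% and 4.54% of all genes). Myoz1, a Z-disc protein of fast fibres, had log2 ratios of at least 4.75 and at least 4.50, and Pgam2, the muscle phosphoglycerate mutase, 4.65 and 4.33. Mybpc2 had at least 4.96 and at least 3.66, and Myom2, an M-band protein, at least 5.45 and then 2.78. Of the 11 slow-fibre genes, 9 were at least 2-fold higher at each age, with medians of at least 2.52 and at least 2.48. Myh7 had 5.95 and 5.40, Myl2 at least 5.14 and then 5.97, Myoz2 at least 4.15 and at least 4.60 and Myl3 4.06 and 4.67. These, like the examples named from the other lists here, are the genes with the largest ratios of their list. The slow genes under 2-fold were Tnnc1 at 3 weeks, at -0.35, Tnnt1 at 6 weeks, at 0.43, and Atp2a2 at both ages, at 0.27 and 0.36. Of the 20 sarcomere genes of both fibre types, 19 had a ratio and 16 were at least 2-fold higher at each age, with medians of at least 2.33 and at least 2.78. Acta1, skeletal muscle actin, had 8.84 and 4.99, Tcap, a titin cap, at least 6.88 and then 5.66, Ttn at least 6.32 and at least 5.63, and Myot, a Z-disc protein, at least 6.04 and at least 6.16. These list medians depend on how dim readings are treated. With normexp and quantile normalization, where they still hold bounds, they were at least 2.01 and 1.15 for the other fast genes. They were at least 1.72 and 0.83 for the slow genes and at least 1.25 and 1.24 for the genes of both types. With no floor they were 3.76 and 2.78, 4.03 and 3.62, and 3.79 and 3.68, in the same order.

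Set beside each other, the medians of KO over WT were at least 7.95 for the 10 fast genes and at least 2.52 for the slow list at 3 weeks, and at least 5.34 and at least 2.48 at 6 weeks. Both sides are bounds and the fast genes were chosen on these ratios, so no size is given for the gap. Across the 4 arrays, the summed signal of the 10 fast genes was 57.0 in KO and 0.313 in WT at 3 weeks, and 33.5 in KO and 0.678 in WT at 6 weeks. That of the slow list was 8.90 in KO and 2.37 in WT at 3 weeks, and 9.20 in KO and 2.91 in WT at 6 weeks. Atp2a2 and Tnnt1 were the largest parts of the slow WT sums, at 1.31 and 0.728 at 3 weeks and 1.49 and 1.18 at 6 weeks. In KO they had 1.58 and 2.43 at 3 weeks, and 1.90 and 1.59 at 6 weeks. The sums add different probes, so those of the fast and slow lists give no measure of fast against slow.

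Markers of other contractile or abdominal tissues were read on the same arrays, and their part in the values above was not tested. Of 11 cardiac genes, Tnni3, Ryr2 and Tbx5 were not well above background on any array, and Myh6, the atrial and adult cardiac heavy chain, had log2 ratios of KO over WT of -0.06 and 0.34. Nppa, the atrial peptide, had 0.18 and 0.40. The cardiac list's summed signal was 0.575 and 0.553 in KO and 0.558 and 0.602 in WT at 3 and 6 weeks. Of 8 cardiac genes with a ratio at 3 weeks, 1 was at least 2-fold higher in KO (2.86% of all genes), Nkx2-5, as a lower bound. Of 6 at 6 weeks, 2 were (6.11%), Tnnt2 and, as a lower bound, Mybpc3. Nkx2-5 was not well above background in KO at 6 weeks. At least 2-fold lower in KO were Mybpc3 at 3 weeks (2.90%) and Nppb at 6 weeks (4.54%). Of 8 smooth muscle genes 7 had a ratio at 3 weeks, and none was at least 2-fold higher in KO. At 6 weeks 1 was, Lmod1, as a lower bound, and Myh11, the smooth muscle heavy chain, had log2 ratios of 0.16 and 0.09 at 3 and 6 weeks. The smooth muscle list's summed signal was 6.18 and 4.90 in KO and 5.78 and 5.10 in WT. Of 6 genes of muscle precursors and muscle formation, Myf5, Myod1 and Myog were not well above background on any array, and Myf6, which adult fibres express, had log2 ratios of 1.96 and 1.43. Mymk, the membrane protein of myoblast fusion, was detected on every array with ratios of -0.05 and 0.29. Pax7, the satellite cell factor, was detected in KO at 3 weeks alone, at 0.0162, where the WT reading was 0.0169 and not well above background, so it has no ratio.

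The mesothelium list, 5 genes of the lining of the liver and body wall, had no gene past 2-fold between the genotypes, with summed signals of 0.871 and 0.483 in KO and 0.835 and 0.339 in WT. Of 6 brown fat genes 4 had a ratio at 3 weeks. None of them was at least 2-fold higher in KO and 2 were lower (2.90% of all genes), Ucp1 and Cidea. At 6 weeks 5 had a ratio, none of them past 2-fold. The sums were 0.279 and 0.348 in KO and 0.761 and 0.382 in WT. Of 7 pancreatic acinar genes 4 had a ratio at 3 weeks, none of them past 2-fold. At 6 weeks 4 of the 7 were at least 2-fold higher in KO (6.11% of all genes), Clps and, as lower bounds, Cpa1, Cpb1 and Pnlip. The list median at 6 weeks was at least 1.13, and at least 0.28 with normexp and quantile normalization. The summed signal of the list was 0.649 and 1.24 in KO and 0.769 and 0.769 in WT at 3 and 6 weeks.

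Genes whose pattern over the 4 arrays lay nearest to the mean of the 10 were sought among 15768 genes with a symbol that were detected on both KO arrays. Likeness was the Euclidean distance between log2 values, each gene centred on its own mean and dim readings set to the floor. The nearest 8 were Myh7 at a distance of 0.78, Ckm (muscle creatine kinase) at 0.80, Ttn (titin) at 0.91, Cox6a2 at 1.03, Myot at 1.15, Fabp3 at 1.23, Myoz1 at 1.24 and Actn2 at 1.26. Among the 10 themselves the distance to their mean ran from 0.69 for Tnni2 and 1.12 for Tnnt3 to 4.01 for Atp2a1 and 4.18 for Mylpf, with Myh4 at 2.69. With 4 arrays, such a distance describes the shape of a profile and no more.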

How the data were processed

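Cy3-labelled RNA of 4 liver pools, each of 5 livers, was read on 1 Agilent array per pool, per the labels. Agilent Feature Extraction 11.5.1.1, named in the submitters' processing notes, gave the deposited intensity of each spot. Spatial and multiplicative detrending were on and dye normalization used no probes, per the file headers. Deposited flags (other values, 0 or 1) mark outlier, saturated and well-above-background spots, per the file headers. In the authors' value table, each value divided by the intensity over the 75th percentile gave 0.99983 to 0.99998, constant within each array, and the table's medians were 0.0815 and 0.0797 (KO and WT, 3 weeks) and 0.0798 and 0.0778 (KO and WT, 6 weeks). Probe positions are those of mm9.

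Here each array's processed intensity was divided by the 75th percentile of its 43020 non-control spots. Between 189 and 252 outlier spots per array were left out, spots of a probe were averaged and log2 was taken. Members were found by the file's gene name. Other probes were named by accession (27502), symbol (3549) or synonym (404) in a RefSeq table of GRCm38.p6, and 7974 kept the file's name. The probe with the highest mean log2 signal stood for a gene. A ratio with 1 undetected side is a bound against the higher of that array's lowest detected signal (0.0101 and 0.0151 in KO and WT at 3 weeks, 0.0135 and 0.0120 at 6 weeks) and the probe's own, and ratios with both sides undetected were not computed. The median log2 SD between 10 spots of a probe was 0.0645 to 0.0989, and the number of arrays limits all precision.

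With 1 array per group and genes chosen on these values, no test was made. The members, gene lists and the naming rule were chosen with earlier results of these data known. The rule took all members, Pnpla7, up to 4 genes per list by the smaller of their KO over WT ratios (every gene in lists of 8 or fewer) and the 8 genes most alike. Any other gene is named with its value already known. The ratio and bound steps were tested on simulated data. Alternatives were normexp (offset 50) with quantile normalization, quantile normalization, median scaling, the authors' value table, the mean of a gene's probes, outlier spots retained, no floor, and thresholds of 1.5-fold, 3-fold and 16-fold. Tools were Python 3.11.15, numpy 2.4.6, pandas 2.3.3, matplotlib 3.10.9, R 4.3.3 and limma 3.58.1.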

Additional observations from a re-analysis of the deposited data

Results flagged for a closer look

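Of the 7 fast-fibre genes detected on a WT array, 5 moved in opposite directions between the ages in KO and in WT, by more than the spot error on each side, and the difference was not tested. The share of all genes with such opposite changes was not computed, so the count cannot be called particular to these genes. The log2 ratio of 6 weeks over 3 weeks was -0.49 in KO and 2.36 in WT for Tnnc2, and -1.08 in KO and 1.01 in WT for Tnni2. It was -0.91 in KO and at least 1.22 in WT for Tnnt3, -1.20 in KO and at least 1.03 in WT for Myh1, and -0.49 in KO and at least 1.72 in WT for Myl1. With normexp and quantile normalization the WT ratios and bounds of these 5 genes were smaller, from at least 0.38 for Myh1 to 1.49 for Tnnc2, and kept their sign. Each value rests on 1 array per age.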

How the results depend on the processing

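No fast-fibre gene's ratio changed direction under the 7 alternatives run, and of 258 member values 213 moved by less than the spot error. Several alternatives could hardly move them. No member spot was an outlier, and most members have a single probe. The authors' table holds the same quotient up to a constant per array. With normexp and quantile normalization, every KO over WT ratio of the 10 genes moved by more than the spot error. The count of genes at least 2-fold higher in KO stayed between 9 and 10 of 10 at 3 weeks and between 8 and 10 at 6 weeks over the settings. At the 16-fold threshold the count was 7 at both ages. With normexp and quantile normalization the median log2 ratio of KO over WT was at least 6.16 at 3 weeks and at least 4.59 at 6 weeks. In that setting the median of 6 weeks over 3 weeks in WT was at least 0.52, and the fast median minus the slow median in KO was -0.63. With the mean of all probes the 3-week median of KO over WT was at least 7.56. With no floor for dim readings the medians were 8.33 and 5.70 for KO over WT and 1.58 for WT between the ages, larger because dim readings then stand below the floor. Median scaling moved the median of all genes between the KO arrays to 0.11, from 0.06. Signal over background limits 7 of the 10 ratios at 3 weeks and 3 at 6 weeks to bounds. No paired analysis was possible because each group holds 1 array and the labels give no replicate numbers.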

Other observations

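The neonatal and embryonic myosin heavy chain genes next to the fast ones gave a mixed reading. Myh8, the neonatal chain, had a signal of 11.8 in KO and 0.0116 in WT at 3 weeks on its brightest probe, the WT reading not well above background, and of 6.69 in KO and 0.0771 in WT at 6 weeks. This gave log2 ratios of KO over WT of 9.61 or more at 3 weeks, and 6.44 at 6 weeks. That probe starts at base 5937 of its transcript. Of the 3 other Myh8 probes, those starting at bases 2202 and 477 of their transcripts read 0.0197 and 0.0447 in KO and 0.0185 and 0.00345 in WT at 3 weeks, the last of these not well above background, and the third was not well above background on any array. The level of Myh8 thus depends on the probe, and with the mean of its probes the 3-week log2 ratio was 3.30. Myh3, the embryonic chain, was not well above background in KO at 3 weeks on either of its probes and had signals of 0.0663 and 0.0641 in KO at 6 weeks.

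Pvalb, the calcium buffer of fast fibres, also differed by probe. Between the KO arrays its log2 ratio of 6 weeks over 3 weeks was -1.65 on the brighter probe and -3.11 on the other.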
